A study of Mus musculus with 24 samples.

Results

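Keratins are the intermediate filament proteins of epithelial cells, and a filament forms only when a type I keratin pairs with a type II keratin. In stratified epithelia the cells on the basement membrane make Krt5 (type II) with Krt14 and Krt15 (type I), whereas Krt6a, Krt6b, Krt16 and Krt17 are made in hair follicle, nail and oral epithelium and are induced in skin by wounding and in hyperproliferation. In bladder tumors, high levels of these keratins mark the basal/squamous (Ba/Sq) subtype. The 7 genes named here, called basal keratins below, were chosen by name out of 53465 genes in the counts, and 53 protein-coding keratin genes were among these.

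RNA was measured in 24 tumors, 3 from each of 8 BURP lines. Every line began as a bladder tumor of 1 C57BL/6NTac mouse that drank 0.1% of the bladder carcinogen BBN in its water, and was then passaged under the skin of sex-matched C57BL/6NTac mice, so that the 3 tumors of a line share 1 donor mouse. The Ba/Sq lines were BURP-12BaSq, BURP-17BaSq, BURP-18BaSq, BURP-21BaSq, BURP-24BaSq and BURP-25BaSq, the neuroendocrine-like line was BURP-19NE and the stroma-rich line, with sarcomatoid histology, was BURP-16SR. BURP-21BaSq, BURP-24BaSq and BURP-25BaSq came from female mice and the other lines from male mice. Line and sex therefore cannot be told apart where lines of different sex are compared. The donors began BBN at 8 weeks of age, and the age of the hosts is not given in the sources used here. BURP-19NE and BURP-16SR stand for 1 line each, so a difference between subtypes cannot be told apart from a difference between lines. The study assigned the subtypes with a classifier run on the RNA-seq of these same tumors, beside histology. The grouping and the keratin levels compared here therefore come from the same data.

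Totals ran from 9295708 to 25370320 estimated counts per tumor. In tumor C102-M30 of BURP-25BaSq, 61.9% of the counts lay on 1 gene, CT010467.1. Tumor C102-M1, labelled BURP-25BaSq, had a correlation of log2 level over 20523 genes of 0.962 to 0.973 with the tumors of BURP-21BaSq and of 0.872 to 0.894 with the other tumors of its own line. It was kept as labelled, and tests described below whose call depends on it are also given without it. In these bulk samples fewer cells of a type and less RNA per cell cannot be told apart.

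The 4 type I genes lie on chromosome 11 and the 3 type II genes on chromosome 15 of GRCm38, all on the minus strand. Krt15 spans chr11:100131758-100135928, Krt14 chr11:100203162-100207548, Krt16 chr11:100246091-100248902 and Krt17 chr11:100256217-100261029. Krt6b spans chr15:101676023-101680287, Krt6a chr15:101689910-101694307 and Krt5 chr15:101707070-101712898. The coding sequences (GENCODE M21, same build) are shown where the members are most alike, since that decides how well reads can be assigned. Below, for exon 2 of the type II genes, capitals mark bases that differ from Krt5, and the 75 bases lie at chr15:101711669-101711743, chr15:101693103-101693177 and chr15:101679076-101679150.
Krt5: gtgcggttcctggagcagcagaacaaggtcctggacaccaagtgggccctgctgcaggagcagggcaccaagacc
Krt6a: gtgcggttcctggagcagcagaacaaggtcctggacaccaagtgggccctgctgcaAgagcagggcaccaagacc
Krt6b: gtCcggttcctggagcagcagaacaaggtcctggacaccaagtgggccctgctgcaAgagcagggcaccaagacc

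For exon 3 of the type I genes, capitals mark bases that differ from Krt14, and the windows lie at chr11:100205000-100205074, chr11:100134227-100134301, chr11:100247614-100247688 and chr11:100259225-100259299.
Krt14: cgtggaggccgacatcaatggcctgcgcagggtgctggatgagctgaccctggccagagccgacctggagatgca
Krt15: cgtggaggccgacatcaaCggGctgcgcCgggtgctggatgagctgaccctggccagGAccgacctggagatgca
Krt16: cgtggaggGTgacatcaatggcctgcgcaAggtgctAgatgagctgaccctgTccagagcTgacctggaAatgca
Krt17: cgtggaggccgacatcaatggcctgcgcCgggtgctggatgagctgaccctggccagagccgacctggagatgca

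Over whole coding sequences, Krt6a and Krt6b were 97.6% identical, Krt14 and Krt16 83.2%, Krt5 and Krt6a 76.0%, and Krt15 no more than 68.3% to any other type I member. The stretch of exon 4 where Krt6a (chr15:101692481-101692555) and Krt6b (chr15:101678300-101678374) are least alike still holds 63 of 75 bases in common. It is shown with the differing bases in capitals.
Krt6a: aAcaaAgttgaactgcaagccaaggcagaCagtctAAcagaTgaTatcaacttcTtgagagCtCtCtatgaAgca
Krt6b: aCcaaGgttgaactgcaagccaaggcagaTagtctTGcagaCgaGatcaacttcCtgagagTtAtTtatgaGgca

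Of all stretches of 100 bases in the coding transcript, 34.0% of those in Krt6a and 30.6% of those in Krt6b also occurred in another gene, mostly in each other. The share was 24.3% for Krt16, mostly with the pseudogene Gm11597, 2.88% for Krt14, 2.38% for Krt5 and 0 for Krt15 and Krt17. For stretches of 50 bases the shares were 49.5% for Krt6a, 50.1% for Krt6b, 37.6% for Krt16, 14.4% for Krt14, 8.52% for Krt5, 3.995% for Krt17 and 0.666% for Krt15. The authors' counter divides reads that fit several genes, so Krt6a and Krt6b are uncertain relative to each other. Their deposited estimates were not whole in 19 of 24 tumors, those of Krt5, Krt14, Krt16 and Krt17 in 17 or 18, and those of Krt15 in 2. Of the genes outside the set that share such stretches, the copies of Krt16 and Krt6 had at most 0.137 CPM (counts scaled to a common library size) for Gm11597, 0.956 for Gm5414 and 0.561 for Gm5478 in any Ba/Sq tumor. Krt76 and Krt42, which share stretches of 50 but not of 100 bases with members, reached 12.3 and 61.6 CPM.

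Levels are given as CPM on library sizes normalised by TMM. Krt5 was the steadiest member. Over the 18 Ba/Sq tumors its lowest level was 2950 CPM, its median 3932 and its highest 6053, with a mean of 4155 ± 935 (SD, n = 18). Line means of Krt5 lay between 3361 ± 410 CPM in BURP-21BaSq and 4879 ± 1184 in BURP-24BaSq (SD, n = 3 each). Its partner Krt14 ranged from 2700 through a median of 3362 to 5744 CPM, with a mean of 3754 ± 1036. Neither gene differed detectably between the Ba/Sq lines (adjusted p = 0.268 for Krt5 and 0.524 for Krt14, edgeR's quasi-likelihood F test over 6 lines, Benjamini-Hochberg adjusted over 20523 genes). The widest difference between any pair of lines was 0.54 on the log2 scale for Krt5 and 0.63 for Krt14. The SD of log2 CPM was 0.32 for Krt5 and 0.37 for Krt14, and 12.1% and 20.5% of all genes tested had a lower one, against a median SD of 0.61 over all genes.

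The other members varied more. Their means over the 18 Ba/Sq tumors were 4078 ± 2570 CPM for Krt6a, 963 ± 739 for Krt6b, 651 ± 403 for Krt17, 495 ± 569 for Krt16 and 394 ± 477 for Krt15. The highest tumor exceeded the lowest 6.07-fold for Krt6a, 11.4-fold for Krt17, 12.8-fold for Krt6b, 55.5-fold for Krt16 and 159-fold for Krt15, compared with 2.05-fold for Krt5 and 2.13-fold for Krt14. The highest Krt16 value was that of C102-M1, and without it Krt16 ran from 40.5 to 1530.3 CPM, with a mean of 392 ± 376 (SD, n = 17). Per kilobase of exon, the scale on which genes can be compared, the order of mean levels was Krt14 (2135 ± 589 CPM per kb), Krt5 (1891 ± 426), Krt6a (1686 ± 1063), Krt6b (431 ± 331), Krt17 (420.0 ± 260), Krt16 (316 ± 364) and Krt15 (223 ± 270). Each step from 1 of these to the next was smaller than the SD of either gene, apart from that between Krt6a and Krt6b. The 7 genes held 78.0% ± 9.76 of all keratin counts in the Ba/Sq tumors.

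**Figure D1:**
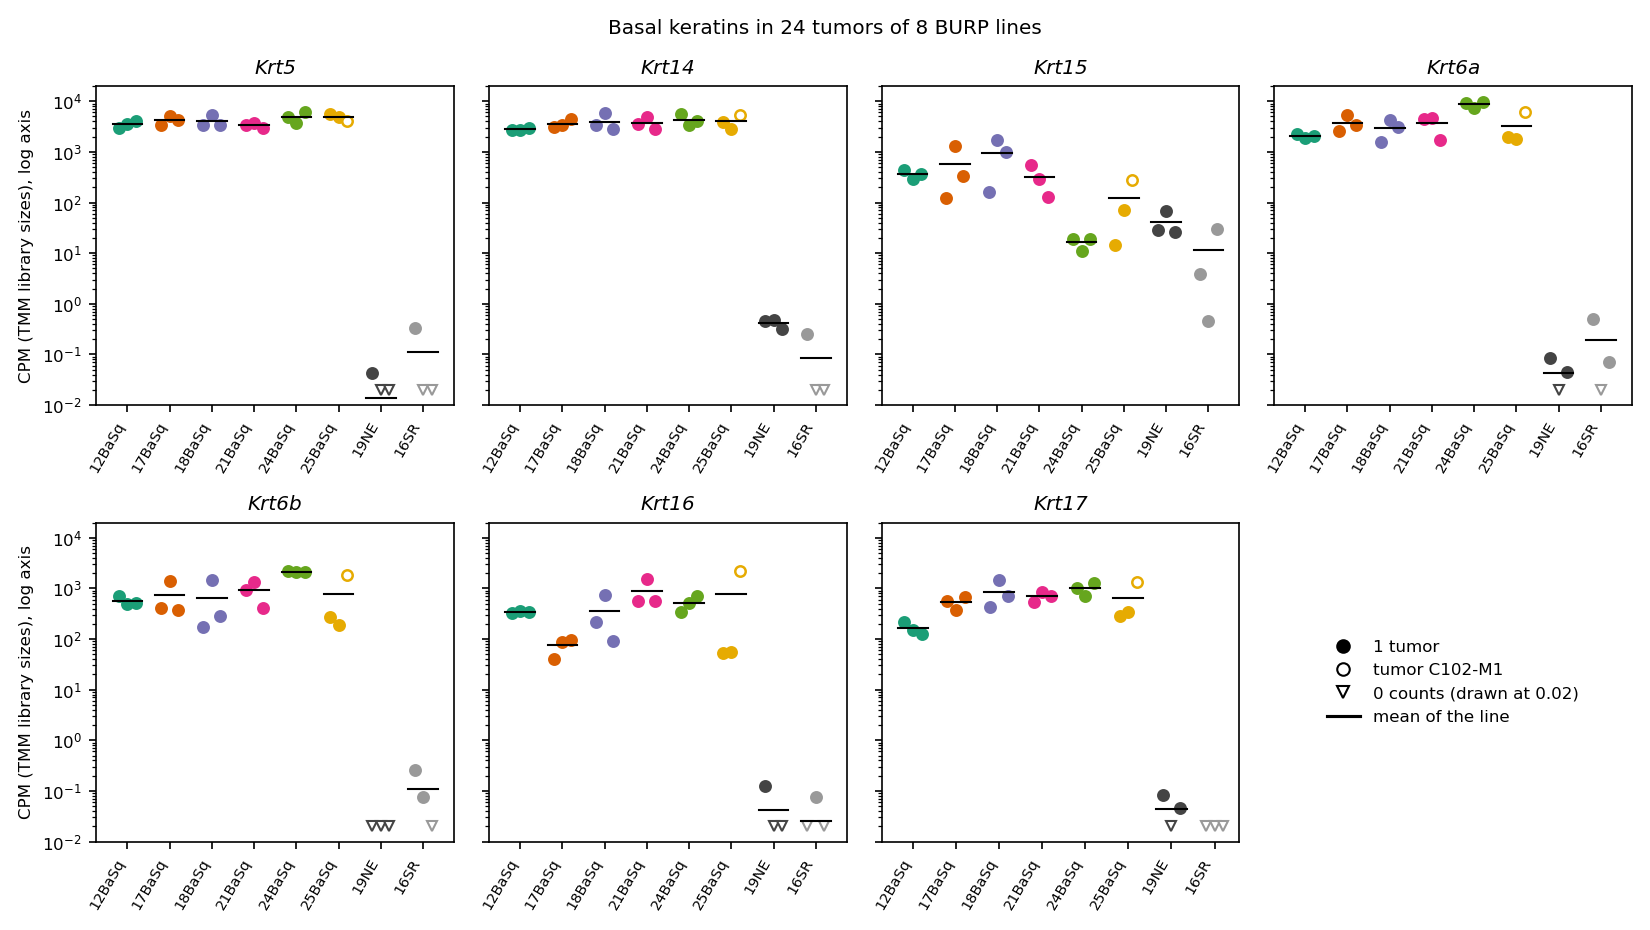
Level of each basal keratin (CPM, log axis) in the 24 tumors by line. Points are tumors, the open circle is C102-M1, bars are line means and triangles are tumors with 0 counts, drawn at 0.02. Krt5 and Krt14 lie between 2700 and 6053 CPM in every Ba/Sq tumor, and Krt15 is the member with most counts in BURP-19NE and BURP-16SR.

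The any-difference test over the 6 Ba/Sq lines called 3 of the 7 members, Krt15 (adjusted p = 0.00996), Krt17 (0.0205) and Krt6a (0.0265), while 50.5% of all 20523 genes tested were called. It did not call Krt16 (0.148) or Krt6b (0.278), and DESeq2 called Krt16 (0.0366). Without C102-M1 it also called Krt16 (0.00181) and Krt6b (0.0347). The calls of Krt17 and Krt6a were lost without single tumors, Krt17 without C47-M30 (0.0798) or C47-M3 (0.0851) of BURP-12BaSq, and Krt6a without either of these (0.0582 and 0.0558) or without any 1 tumor of BURP-24BaSq (0.0523 to 0.0845).

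Krt15 set the lines farthest apart. In BURP-24BaSq its level was 18.6, 10.9 and 19.4 CPM. In BURP-18BaSq it was 159, 1727 and 1005 CPM, in BURP-17BaSq 120.2, 1279 and 329, in BURP-12BaSq 431, 295 and 370, and in BURP-21BaSq 540.0, 289 and 129. All 3 tumors of BURP-24BaSq lay below every tumor of these 4 lines. In BURP-25BaSq the values were 14.4 and 72.1 CPM, and 276 in C102-M1, so that line spanned both ranges.

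BURP-24BaSq was lower in Krt15 than the mean of the other 5 Ba/Sq lines, with a log2 fold change of -4.54 ± 1.04 (SE; adjusted p = 0.00863). BURP-18BaSq was higher, with 2.53 ± 0.63 (adjusted p = 0.0075), although its tumor C148-M3 lay below those of BURP-12BaSq. Set against the 15 other tumors as 1 group, the difference of BURP-18BaSq was 1.79 and no longer passed (adjusted p = 0.199), and without its tumor C149-M3 it was 1.80 (adjusted p = 0.102). That of BURP-24BaSq missed the threshold without tumor C81-M30 (-4.32, adjusted p = 0.0607). In these comparisons 7.79% of all genes were called for BURP-24BaSq and 15.5% for BURP-18BaSq. BURP-17BaSq had a difference of 1.63 ± 0.66 in Krt15 (adjusted p = 0.122), which passed without C102-M1 (1.94, adjusted p = 0.0428). Between pairs of lines, 4 of 15 comparisons of Krt15 passed, all with BURP-24BaSq and by 4.29 to 5.89 on the log2 scale, where 9.57% of all gene-by-pair comparisons passed.

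Krt6a ran the other way in BURP-24BaSq. Its levels were 9330.0, 7424 and 9452 CPM there, above the highest of the other 15 Ba/Sq tumors, C102-M1 with 6158. The log2 fold change over the other 5 lines was 1.504 ± 0.34 (SE; adjusted p = 0.00839), and its lowest value in any leave-one-out fit was 1.44. Krt6b, the near-identical neighbour, stood at 2246, 2143 and 2068 CPM in BURP-24BaSq, also above all 15 other Ba/Sq tumors, with a log2 difference of 1.59 ± 0.59 that did not pass (adjusted p = 0.0775) and was just under the threshold with DESeq2 (adjusted p = 0.04997). That difference was 1.94 without C102-M1 (adjusted p = 0.0107), 1.88 without C149-M3 of BURP-18BaSq (0.021) and 1.77 without C165-M30 of BURP-17BaSq (0.0434), and passed in each. For Krt17 the difference in this line was 0.97 ± 0.38 (adjusted p = 0.0921), and it passed without C102-M1 (1.18, adjusted p = 0.00851) or C149-M3 (1.09, adjusted p = 0.0464). As background, 4.51% of all genes did not overlap between BURP-24BaSq and the other Ba/Sq tumors. Of the 8 epithelial markers, 3 were also called higher in this line (Cldn4, Rab25 and Epcam), where 5.46% of all genes were. The part of epithelial content in the Krt6a difference was not tested. Krt5 had a difference of 0.29 ± 0.19 in the same comparison (adjusted p = 0.314).

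Per kilobase, Krt6a ranked first in BURP-24BaSq with 3613 ± 470.3 CPM per kb, ahead of Krt14 (2462 ± 652) and Krt5 (2221 ± 539). In the other 5 Ba/Sq lines its mean was behind both over all exons, while per kilobase of the longest transcript it was ahead of Krt5 in BURP-21BaSq (1542 against 1530 CPM per kb). The ratio of Krt6a to Krt5 was 1.73, 1.83 and 1.42 in the 3 tumors of BURP-24BaSq, with a mean of 1.66 ± 0.21, and 0.53 ± 0.12 in BURP-12BaSq. The 2 other tumors of BURP-25BaSq had 0.312 and 0.341, against 1.35 in C102-M1. Krt14 to Krt5 kept between 0.723 and 1.63 in all 18 tumors, with a mean of 1.15 ± 0.26. Krt6a exceeded Krt6b per kilobase in every Ba/Sq tumor, from 2.74-fold to 9.99-fold, a ratio that rests on how shared reads were divided. The type I members together reached 0.506 ± 0.057 of the type II members per kilobase in BURP-24BaSq and 1.04 ± 0.11 in BURP-18BaSq.

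**Figure D2:**
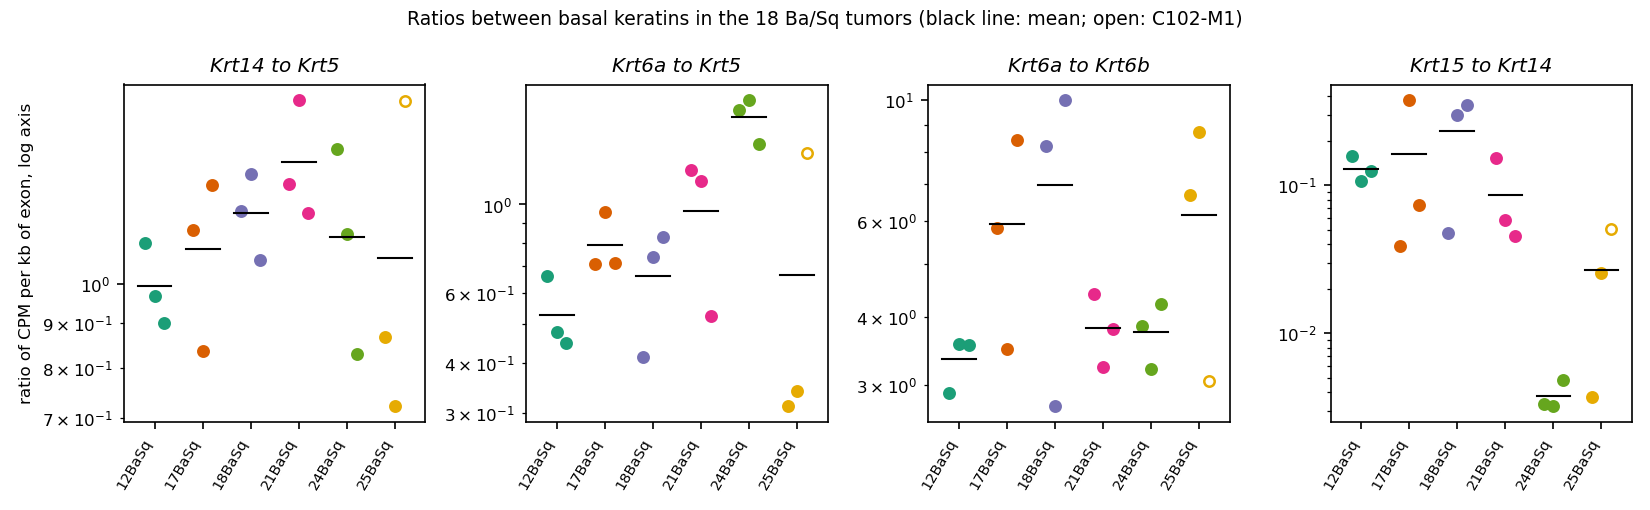
Ratios of CPM per kilobase of exon (log axis) between basal keratins in the 18 Ba/Sq tumors by line. Points are tumors, black lines are line means and the open circle is C102-M1. The ratio of Krt6a to Krt5 is 1.42 or more in the 3 tumors of BURP-24BaSq, and that of Krt15 to Krt14 is 0.00481 or less there. Tumor C102-M3 of BURP-25BaSq has a ratio of Krt15 to Krt14 in the same range, 0.00368.

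Krt17 set BURP-12BaSq apart. Its levels in that line were 218, 147.6 and 127 CPM, below all 15 other Ba/Sq tumors, the lowest of which had 283. The log2 fold change against the other 5 lines was -2.16 ± 0.48 (SE; adjusted p = 0.00576), where 11.1% of all genes were called and 7.07% did not overlap. It stayed between -2.41 and -1.94 with each tumor left out in turn. Each of the 5 pairs of BURP-12BaSq with another Ba/Sq line passed in Krt17, by 1.71 to 2.604 on the log2 scale. In the same line 2 of 7 fibroblast markers and 2 of 8 epithelial markers were called lower, where 5.86% of all genes were. The part of these markers in the Krt17 difference was not tested.

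Krt16, the usual partner of the Krt6 proteins, had its lowest line mean over all tumors in BURP-17BaSq, with 40.5, 89.2 and 94.5 CPM (mean 74.7 ± 29.8). BURP-25BaSq had a lower mean, 54.4 CPM, when C102-M1 was left out. The log2 difference of BURP-17BaSq from the other lines, -2.84 ± 1.02, did not pass (adjusted p = 0.0837), and 6.18% of all genes were called. Without C102-M1 it was -2.07 and passed (adjusted p = 0.0215), as it did with either other tumor of BURP-25BaSq left out. In BURP-21BaSq Krt16 stood at 569.7, 1530.3 and 572 CPM, with a difference of 1.45 ± 0.74 (adjusted p = 0.262) that was 2.22 without C102-M1 (adjusted p = 0.00318). Of all genes 2.86% were called in this comparison with all tumors, and 1391 of 21271 without C102-M1. C102-M1 itself had 2245 CPM, the highest of all tumors, while the other 2 tumors of BURP-25BaSq had 52.4 and 56.4. The difference of BURP-25BaSq in Krt16 was thus 1.23 ± 0.75 with C102-M1 (adjusted p = 0.386) and -2.63 without it (adjusted p = 0.0231), a turn of direction. With all 3 tumors 2.59% of all genes were called in this comparison, and without C102-M1 1620 of 21271. C102-M1 also held more Krt17 (1314 CPM against 283 and 340), Krt6a (6158 against 1926 and 1811) and Krt6b (1869 against 267 and 192) than the other 2 tumors of its line.

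**Figure D3:**
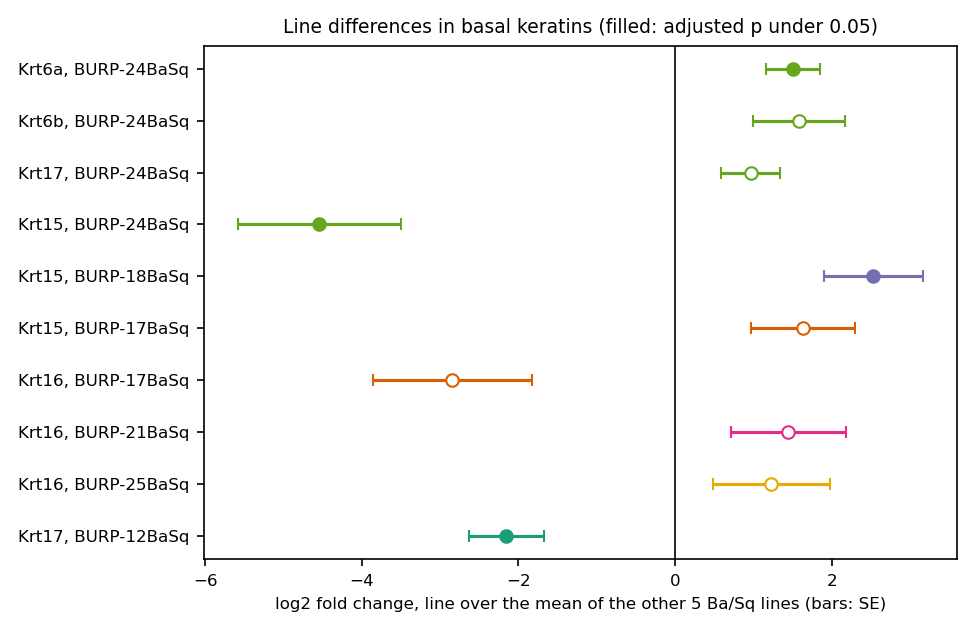
Log2 fold change (bars: SE) of a Ba/Sq line over the mean of the other 5 Ba/Sq lines, for the members described here. Filled points have an adjusted p under 0.05 with all 18 tumors: Krt6a and Krt15 in BURP-24BaSq, Krt15 in BURP-18BaSq and Krt17 in BURP-12BaSq.

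Members were also compared tumor by tumor. Krt6a and Krt6b ran most nearly together, with Pearson's r = 0.893 over the 18 Ba/Sq tumors and 0.912 for deviations from line means. This pair shares reads, and the part of those was not tested. Krt5 and Krt14 had r = 0.531, and Krt14 had 0.704 with Krt17. Krt15 had r = -0.213 with Krt6a over all tumors but 0.868 within lines, and BURP-24BaSq combined the highest Krt6a with low Krt15. These values share lines and libraries and are descriptions only. Among the other genes, those like Krt5 over the 18 tumors included Cdh1, the E-cadherin gene (r = 0.833), and Tiam1, an activator of Rac (0.807). Most like Krt14 were Wdr24 (0.796), Jup, the plakoglobin of desmosomes (0.784), and Erbb2 (0.77). Krt16 was nearest to Wfdc5 (0.942), Fam25c (0.926) and 2310046K23Rik (0.918), and Krt17 with Cdkn1a, the cell cycle inhibitor p21 (0.889), Myl12a (0.876) and Farp1 (0.865). Krt6a was nearest to Cpeb2 (0.927), Cnfn, a gene of the cornified envelope (0.906), and Ceacam19 (0.897), Krt6b to Sult2b1, a cholesterol sulfotransferase (0.916), Ell2 (0.915) and Zfp92 (0.913), and Krt15 to Gm44758 (0.882), 1700023H06Rik (0.869) and Fer1l6 (0.861).

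**Figure D4:**
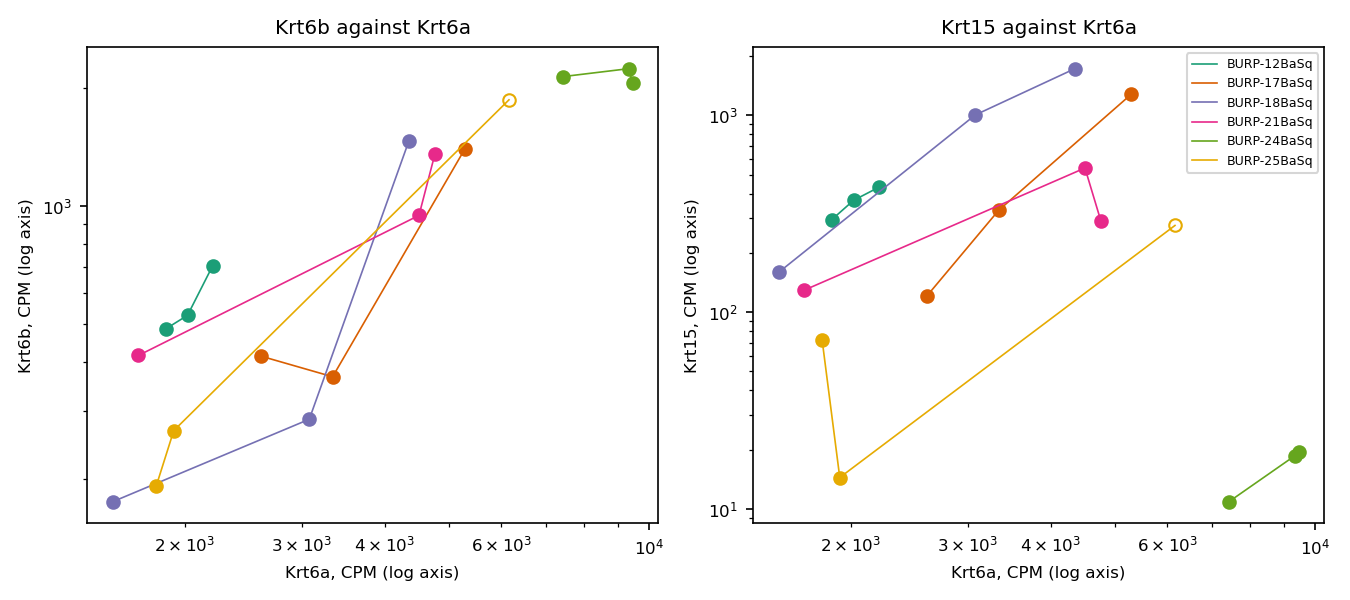
Krt6b (left) and Krt15 (right) against Krt6a in the 18 Ba/Sq tumors (CPM, log axes), with the 3 tumors of a line joined and C102-M1 drawn open. Krt6b rises with Krt6a over the tumors, whereas BURP-24BaSq combines Krt6a of 7424 CPM or more with Krt15 of 19.4 CPM or less.

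In BURP-19NE 6 of the 7 members were near 0. Krt5 had 1, 0 and 0 counts in the 3 tumors, Krt16 3, 0 and 0, Krt17 2, 0 and 1, Krt6a 2, 0 and 1, and Krt6b none. A floor of 3 counts over the line makes Krt6b at least 20787-fold lower than the Ba/Sq mean. Krt14 had 11, 9 and 7 counts, and its Ba/Sq mean was 9004-fold higher (95% counting interval, exact Poisson, 6189 to 13663). These 6 members were called lower than in the 18 Ba/Sq tumors (adjusted p from 1.33e-14 for Krt5 to 4.68e-05 for Krt16), where 15% of all 20995 genes tested were called lower, and in all 6 the tumors did not overlap, as was so in this direction for 8.5% of genes.

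Krt15 was the exception in BURP-19NE. Its counts there were 680, 1276 and 580, or 28.6, 67.3 and 26.3 CPM. All 3 tumors lay above the 3 tumors of BURP-24BaSq, and the log2 difference from the 18 Ba/Sq tumors, -3.25 ± 1.37, did not pass (adjusted p = 0.0733). DESeq2 called it (-3.28, adjusted p = 0.00361). Krt15 therefore ranked first per kilobase among the members in BURP-19NE, with 23.1 ± 13.0 CPM per kb, and Krt14 followed with 0.238 ± 0.050.

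In BURP-16SR all 7 members were called lower than in the Ba/Sq tumors, where 8.62% of all 21028 genes tested were. In 6 of them the tumors did not overlap with any Ba/Sq tumor, as was so in this direction for 5.57% of genes. Krt17 had no count, which a floor of 3 counts over the line places at least 8471-fold below the Ba/Sq mean. The other members apart from Krt15 had at most 6 counts in any tumor. The Ba/Sq mean of Krt5 was 40528-fold higher (95% counting interval 15829 to 148745, from 4 counts), that of Krt6a 22725-fold (11029 to 56522, from 7 counts) and that of Krt6b 9391-fold (3668 to 34468, from 4 counts). Most of these counts lay in tumor C73-M10, which held all 4 of Krt5, 6 of 7 of Krt6a and 3 of 4 of Krt6b. Krt15 varied, with 3.81, 0.464 and 29.6 CPM from 45, 6 and 423 counts. Its log2 fold change was -5.08 ± 1.70 (SE; adjusted p = 0.0319), and the call rested on single tumors. The fold change was -4.68 without C73-M10 (adjusted p = 0.131), -4.52 without C74-MNT (0.112) and -4.99 with counts summed per line, where BURP-16SR is 1 sample (0.273). Between BURP-16SR and BURP-19NE, Krt15 was the member with enough counts to be tested, and its difference of -1.80 ± 1.16 did not pass (adjusted p = 0.268), where 23.6% of 17556 genes were called. Without tumor P5 of BURP-16SR it was -4.18 (adjusted p = 0.0125). The comparisons of BURP-19NE and BURP-16SR with Ba/Sq share the same 18 Ba/Sq tumors. Their p-values treat these tumors as independent, although those of a line share 1 donor. The subtypes were assigned from the same RNA-seq, so the calls of basal keratins are no independent test of the grouping.

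Other genes of the basal and squamous programme were lower in the same lines, from lists chosen with earlier results of these data known. Beside the list counts that follow, 15% of all genes tested were called lower in BURP-19NE and 8.62% in BURP-16SR. In BURP-19NE 10 of 13 basal regulators were called lower, with a median log2 fold change of -5.78 beside -0.14 over all genes tested, and in BURP-16SR 9 of 13, with -5.93 beside -0.03. Grhl3 and Tfap2c had no count in either line, while Klf5 had the highest fold of the list in BURP-19NE (-0.25 ± 0.22, not called). Trp63, which encodes the basal regulator p63 and is named here for that role, had -9.98 ± 0.62 (SE; adjusted p = 9.12e-11) in BURP-19NE and -11.42 ± 0.71 (adjusted p = 1.12e-10) in BURP-16SR. By staining, however, the study reported high TP63 protein in BURP-19NE and TP63 in some cells of BURP-16SR. Among the Ba/Sq lines it reported BURP-17BaSq and BURP-24BaSq as negative for TP63. Their Trp63 RNA had means of 250 ± 71 and 378 ± 15 CPM (SD). The reason for these differences between RNA and protein was not tested. Of 10 desmosome genes, whose proteins anchor keratin filaments at cell junctions, 9 were lower in both lines, with medians of -7.21 in BURP-19NE and -8.66 in BURP-16SR, and Pkp2 was not called in either. Of 9 hemidesmosome and laminin genes, which anchor them to the basement membrane, 5 were lower in BURP-19NE and 6 in BURP-16SR. Col17a1 had the lowest fold in each line, -9.61 and -10.12. Of the 8 suprabasal keratins tested, 7 were lower in both lines. Of the 5 simple and urothelial keratins, Krt8 alone was called lower in BURP-19NE, though the median log2 fold change of the list was -3.16. In BURP-16SR their median was 0.20.

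All 8 epithelial markers were called lower in both lines, where 15% of all genes were in BURP-19NE and 8.62% in BURP-16SR. Their summed levels were 1.73 to 3.77 CPM in BURP-19NE and 20.4 to 45.3 in BURP-16SR, against 583 to 2219 in the Ba/Sq tumors. Epcam and Esrp1 were at 0 in BURP-19NE. All 6 skeletal muscle markers were called higher in BURP-19NE, where 9.33% of all genes were. Their sum was 579 CPM in tumor C80-M1, and 2.85 and 6.17 in the other tumors, within the 0 to 37.1 of the Ba/Sq tumors. In BURP-16SR 3 of 7 fibroblast markers were called higher, where 10.5% of all genes were, with sums of 558, 7391 and 19899 CPM from lowest to highest against 203 to 9745 and a median of 1092 in the Ba/Sq tumors. The 22 hair and nail keratins matched summed to at most 0.926 CPM in BURP-19NE. In BURP-16SR they summed to 9.92 to 39.5 CPM (median 11.1), against 1.11 to 64.5 (median 5.06) in the Ba/Sq tumors. Of the 8 tested there, 2 were called higher in BURP-16SR and 1 lower, where 10.5% and 8.62% of all genes were. The part of other cell types, or of host skin, in the levels of Krt15 was not tested.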

How the data were processed

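RNA-seq of 24 tumors was used. The authors aligned reads with STAR 2.6.0a to GRCm38 (GENCODE M16 annotation) and deposited estimated counts per gene from RSEM 1.3.1, of which 12.5% of values were not whole. These expected counts were rounded. Tumor lines came from the labels and the subtypes from the names the study gives the lines, which rest on a classifier run on the same RNA-seq. Tests used edgeR 4.0.16 (quasi-likelihood, TMM, filterByExpr) with Benjamini-Hochberg adjustment over all genes tested. A call needed an adjusted p under 0.05 and, except in the any-difference test, a log2 fold change beyond 1. A line was compared with the mean of the other 5 Ba/Sq lines, and BURP-19NE or BURP-16SR with the 18 Ba/Sq tumors. DESeq2 1.42.0, other filters and groupings, and each tumor left out were alternatives. The fits were tested on simulated data. Where lines were kept apart in the fit, p-values measure the spread between tumors passed from 1 donor. Where the Ba/Sq tumors were pooled as 1 group, as for BURP-19NE and BURP-16SR against Ba/Sq, they mix spread between donors and within lines. Such tests treat tumors that share a donor as independent. Counting intervals and floors of 3 counts (0.106 to 1.34 CPM per tumor) cover counting error only. The members and the gene lists were chosen with earlier results of these data known. Besides the members, the text names the 3 genes most like each member (1 of those for Krt5 is not reported here) and, for a list, genes of highest and lowest fold, those at 0 and those called. 1 listed gene was not matched.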

Additional observations from a re-analysis of the deposited data

How the results depend on the processing

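The call of Krt6a in BURP-24BaSq and that of Krt17 in BURP-12BaSq passed under every alternative run. Of 42 differences of a member in a Ba/Sq line, the 4 called kept their sign throughout, and 19 of the 38 others changed sign in at least 1 alternative. With DESeq2, 2 members were called in BURP-12BaSq (Krt6a added) and 1 in BURP-17BaSq (Krt16), Krt6b in BURP-24BaSq and Krt16 in the any-difference test also passed, and the genes called rose to 1000 in BURP-21BaSq and 800 in BURP-25BaSq. With at least 10 counts in every tumor, which leaves fewer genes to test, 2001 genes were called in BURP-19NE and 1594 in BURP-16SR, with 0 members in each since 1 and 0 members remained to be tested, and 977, 450, 1230, 203, 615 and 198 in BURP-12BaSq, BURP-17BaSq, BURP-18BaSq, BURP-21BaSq, BURP-24BaSq and BURP-25BaSq. Set against the 15 other tumors as 1 group, these 6 lines had 941, 220, 2065, 4, 339 and 56 genes, and BURP-18BaSq 0 members. With all 24 tumors in 1 fit, 1 member was called in BURP-17BaSq and 1 between BURP-16SR and BURP-19NE (Krt14, -2.33). Counts summed per line gave 1087 genes for BURP-19NE and 841 for BURP-16SR. Without C102-M1 and C102-M30, an alternative chosen after seeing the data, 2 members were called in BURP-17BaSq, 1 in BURP-21BaSq (1484 genes) and 4 in BURP-24BaSq, 1164 genes were called in BURP-25BaSq, and Krt16 there reversed to -2.71 but was not called (adjusted p = 0.12). BURP-25BaSq is then 1 tumor, assumed to vary like those of the other lines. The cause was not tested.

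Leaving out 1 tumor at a time, the genes and members called ranged from 8354 to 12216 and 1 to 5 in the any-difference test, 3527 to 5314 and 6 to 6 in BURP-19NE, 2670 to 4346 and 6 to 7 in BURP-16SR, and 2845 to 5545 and 0 to 1 between these lines. The ranges were 1238 to 2605 and 1 to 1 in BURP-12BaSq, 716 to 1734 and 0 to 2 in BURP-17BaSq, 2030 to 3893 and 0 to 1 in BURP-18BaSq, 92 to 1391 and 0 to 1 in BURP-21BaSq, 837 to 1960 and 1 to 5 in BURP-24BaSq, and 167 to 1620 and 0 to 1 in BURP-25BaSq, where Krt16 ran from -2.63 to 1.78. In BURP-24BaSq the 5 members were called without C102-M1, and not all of them are named here. No paired analysis was possible because the replicate numbers were given in accession order and pair no tumors across lines.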

Other observations

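The Ba/Sq lines also differed in keratins outside the basal set. The 5 simple and urothelial keratins, made in single-layered epithelia and urothelium, summed to 31.1 to 82.6 CPM in BURP-12BaSq and to 1404 to 2961 CPM in BURP-17BaSq. In BURP-12BaSq 3 of the 5 were called lower than in the other Ba/Sq lines (Krt8 by a log2 fold change of -8.49, Krt18 by -3.72 and Krt19 by -3.57), and in BURP-17BaSq 3 of 5 were higher, where 5.86% of all genes were lower and 4.58% higher. The fold of Krt8 rests on at most 7 counts in any tumor of BURP-12BaSq (0.292, 0 and 0 CPM). In BURP-18BaSq, the line with most Krt15, 4 of 9 hemidesmosome and laminin genes were higher (Plec by 1.45, Itga6 by 1.38, Lamb3 by 1.31 and Itgb4 by 1.09), where 9.74% of all genes were, and the list summed to 8472 to 13914 CPM against 4073 to 6928 in the other Ba/Sq lines. Among suprabasal keratins, Krt78 (2.95) and Krt80 (2.57) were higher and Krt76 (-3.09) lower in BURP-24BaSq, and Krt10 (3.14) and Krt77 (1.70) were higher in BURP-12BaSq, where 5.46% of all genes were higher and 2.33% lower in the former line and 5.23% higher in the latter. Krt76 had at most 9 counts in any tumor of BURP-24BaSq, and Krt77 at most 28 in BURP-12BaSq. The mean of BURP-25BaSq exceeded that of BURP-12BaSq in Krt10 (490 ± 473 against 202 ± 98 CPM) and Krt77 (1.55 ± 1.47 against 1.04 ± 0.14). In BURP-25BaSq 2 of 8 suprabasal keratins tested were called higher, where 2.05% of all genes were.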
